A study of Mus musculus with 7 samples.

Results

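The genes described here encode actins and the proteins that bind or move actin filaments: Actb, Actg1, Acta2, Tagln, Tagln2, Tpm1, Tpm2, Myl9, Cnn1 and Cnn2. They were chosen by name in the GENCODE M1 annotation of the mm9 genome, and they make up 10 of 31498 genes with enough unambiguous exonic sequence to be measured. The study removed a distal super-enhancer (SE) of Sox2 by CRISPR in F123 cells, a mouse embryonic stem cell (mESC) line from a cross of CAST and 129 mice, which carries 1 copy of each parental genome. RNA was sequenced from 4 clones. The wild type (CAST+/129+) kept both copies of the SE, CAST+/129- lost the copy on the 129 allele, CAST-/129+ lost the copy on the CAST allele, and CAST-/129- lost both. H3K4me3 and H3K27ac were mapped by ChIP-seq in unedited F123 cells, and H3K27ac also in J1, another mESC line. Each genotype is a single clone with 1 library, so no test between genotypes was possible, and the effect of a deletion and the properties of a clone cannot be told apart. By the paper's culture methods, cells went through feeder-free passages on gelatin before harvest. The transfected cells had earlier recovered on embryonic fibroblast feeders.

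Actin monomers assemble into filaments that give a cell its shape and, with myosin, its tension. Actb and Actg1 encode the cytoplasmic actins that nearly every cell makes, while Acta2 encodes the alpha actin of smooth muscle and of contractile fibroblasts. Tropomyosins lie along the filament, transgelins and calponins bind its side, and Myl9 is a regulatory light chain of myosin II. Many of these genes are textbook targets of serum response factor (SRF), which binds a short AT-rich sequence called the CArG box.

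The sequence just before the annotated start was read from the mm9 genome for each gene, in the direction of transcription. A CArG box, searched on both strands, was present in the 250 bases before the start of 5 of the 10 genes and of 1.34% of 22362 promoters. The promoters of 4 of those genes are shown because they share this feature, and the CArG box is in capitals. The choice of genes did not use the sequence, but it took a family with many textbook SRF targets. A share above that of all promoters is therefore not independent evidence. Acta2 is added as the gene with the largest difference between CAST-/129- and the wild type. It had no exact match, which says only that these letters are not in this window. An exact match reads CC, then only A or T, then GG. The stretches ccctatatgg and ccttgtttgg of Acta2 each hold a C or G among the A and T letters, and such near matches were not counted.
Actg1, chr11:120209857-120210106, minus strand: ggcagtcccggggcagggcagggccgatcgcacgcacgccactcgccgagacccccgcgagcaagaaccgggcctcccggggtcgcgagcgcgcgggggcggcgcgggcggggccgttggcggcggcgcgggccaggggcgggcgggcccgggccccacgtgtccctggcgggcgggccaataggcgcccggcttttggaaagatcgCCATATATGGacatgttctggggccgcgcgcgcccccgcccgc
Tagln, chr9:45744142-45744391, minus strand: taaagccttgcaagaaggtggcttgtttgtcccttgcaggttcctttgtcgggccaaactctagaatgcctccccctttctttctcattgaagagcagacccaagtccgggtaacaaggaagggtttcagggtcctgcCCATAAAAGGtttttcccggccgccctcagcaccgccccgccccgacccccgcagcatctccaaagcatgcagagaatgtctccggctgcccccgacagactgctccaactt
Myl9, chr2:156600906-156601155, plus strand: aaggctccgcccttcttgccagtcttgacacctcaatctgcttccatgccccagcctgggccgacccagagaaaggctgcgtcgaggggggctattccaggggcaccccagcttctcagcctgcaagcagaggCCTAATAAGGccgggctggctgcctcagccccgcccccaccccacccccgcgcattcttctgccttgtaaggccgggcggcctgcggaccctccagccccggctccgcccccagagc
Cnn2, chr10:79451079-79451328, plus strand: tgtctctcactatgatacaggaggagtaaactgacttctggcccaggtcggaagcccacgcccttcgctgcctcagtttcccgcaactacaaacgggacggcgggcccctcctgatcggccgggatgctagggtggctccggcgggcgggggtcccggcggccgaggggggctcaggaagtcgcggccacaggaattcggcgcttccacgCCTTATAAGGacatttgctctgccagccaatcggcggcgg
Acta2, chr19:34329827-34330076, minus strand: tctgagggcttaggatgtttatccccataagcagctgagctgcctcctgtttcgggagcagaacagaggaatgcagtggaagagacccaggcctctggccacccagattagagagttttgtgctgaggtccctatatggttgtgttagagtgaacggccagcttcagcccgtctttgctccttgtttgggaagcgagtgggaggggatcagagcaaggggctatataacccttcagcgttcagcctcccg
The CArG box began 40 bases before the start in Cnn2 and 43 in Actg1, and farther out in Tagln, at 112 bases, and Myl9, at 117 bases. The other motifs searched on both strands were about as frequent as among all promoters, or rarer. TATAAA was found in 0 of 10 against 12.3%, CATTCC, the core of TEAD binding sites, in 1 of 10 (Acta2) against 11.4%, and GGGCGG, the core of SP1 sites, in 4 of 10 against 39.6%. A match is a description of the sequence and not evidence of binding.

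Levels are given as FPKM, a count normalised to exon length and library size, here counted from distinct alignments, meaning that reads aligned in exactly the same way count once. Values from all reads are given beside some results, chiefly where they change a call or move a ratio by over 1.5 times. The wild type library held 24848422 distinct alignments on genes, and those of the deletion clones 12458881 (CAST+/129-), 6058939 (CAST-/129+) and 5831199 (CAST-/129-). Between 96.6% and 97.1% of alignments on genes lay on the expected strand. Intervals are exact 95% intervals and cover counting error only. They treat the segments of 1 spliced read as separate counts, so they can be too narrow. Sox2 was at 174.7 FPKM in the wild type, at 82.0 and 73.1 in the monoallelic clones and at 7.40 in the biallelic one, which follows the number of SE copies on the labels.

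The contractile genes were much higher in all 3 deletion clones than in the wild type, while the cytoplasmic actins and Tagln2 differed by less than 2-fold by distinct alignments. A gene was called when its FPKM plus 4 differed at least 3-fold from the wild type, the rule of the study's methods. In CAST+/129-, 6 of the 10 genes were called higher (Acta2, Tagln, Tpm2, Myl9, Cnn1 and Cnn2), where 0.321% of all genes were. In CAST-/129+, 6 were called higher, with Tpm1 in place of Cnn1, where 0.473% of all genes were. In CAST-/129-, 7 were called higher (those 6 and Cnn1), where 0.819% of all genes were. Among the 13826 genes with a mean of at least 1 FPKM, the shares called higher were 0.731%, 1.08% and 1.87%. Counted by reads, 6 of the 10 were called higher in each clone, where 0.305%, 0.47% and 0.835% of all genes were. With reads thinned to the shallowest library and collapsed again, 6, 6 and 7 were called, where 0.333%, 0.533% and 0.975% of all genes were. None of the 10 was called lower in any clone, where 0.305%, 0.33% and 0.511% of all genes were. The median log2 ratio of the 10 genes was 1.75, 1.86 and 2.41 in the 3 clones, in the same order, beside 0 over all genes. The 3 comparisons share the wild type library. Several of the genes also stand on the list of up-regulated genes that the study drew from these libraries, so the counts are not independent evidence of a direction.

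**Figure D1:**
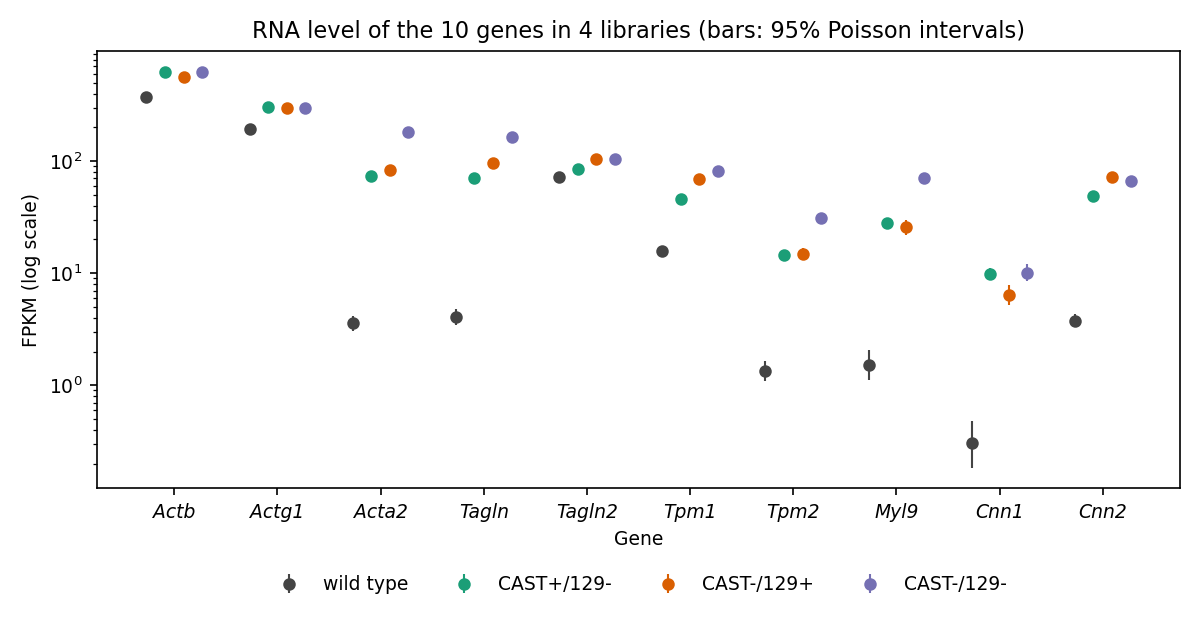
FPKM of the 10 genes (log axis) in the wild type and the 3 deletion clones, 1 library each. Points are levels from distinct alignments and bars their exact 95% Poisson intervals. Acta2, Tagln, Tpm2, Myl9, Cnn1 and Cnn2 lie below 5 FPKM in the wild type and above it in every deletion clone, whereas Actb and Actg1 lie near the top in all 4 libraries.

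Actb, the main cytoplasmic actin, was at 375.7 FPKM (371.0 to 380.4) in the wild type, and at 619.3 (CAST+/129-), 567.8 (CAST-/129+) and 629.1 (CAST-/129-) in the deletion clones. It was thus lowest in the wild type and close in the 3 deletion clones. The ratio to the wild type was 1.65 (1.62 to 1.68), 1.51 (1.48 to 1.55) and 1.67 (1.64 to 1.71). The size of this difference depends on how identical alignments are counted. Each distinct alignment on Actb stood for 5.08 reads in the wild type and 2.52 in CAST-/129-. Counted by reads, the ratios were 1.69, 1.27 and 1.48, and with every library thinned to the reads of the shallowest and collapsed again they were 1.43, 1.20 and 1.29. Actb remained above the wild type in each case.

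Actg1, the other cytoplasmic actin, was at 192.1 FPKM in the wild type, and at 305.3 (CAST+/129-), 296.6 (CAST-/129+) and 299.2 (CAST-/129-) in the deletion clones. The ratio to the wild type was 1.59 (1.55 to 1.63), 1.54 (1.49 to 1.60) and 1.56 (1.51 to 1.61), and by reads 2.01, 1.56 and 1.69. By distinct alignments the biallelic clone did not differ from the others beyond counting error: CAST-/129- was 0.980 times CAST+/129- (0.946 to 1.01) and 1.01 times CAST-/129+ (0.968 to 1.05). Actg1 is the gene whose reads are least certain to be its own, since 63.3% of the 50-base stretches of its exons have an exact copy elsewhere in mm9, against 9.41% for Actb and under 1% for each of the other 8 genes. On exonic bases outside the coding sequence alone, the ratios to the wild type were 1.55, 1.63 and 1.47. How many of those bases have copies elsewhere was not measured, so these ratios do not show whose reads they are. Divided by Actb, Actg1 differed little from the wild type, with log2 ratios of -0.05, 0.03 and -0.10.

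Acta2, the smooth muscle alpha actin, was at 3.57 FPKM (3.04 to 4.17) in the wild type, and at 73.7 (CAST+/129-), 82.9 (CAST-/129+) and 180.8 (CAST-/129-) in the deletion clones. These levels rest on 158, 1635, 894 and 1878 alignments. No intervals overlapped between the wild type and any deletion clone, and CAST-/129- stood above both monoallelic clones. The ratio to the wild type was 20.6 (17.5 to 24.5), 23.2 (19.6 to 27.7) and 50.7 (43.0 to 60.0). Counted by reads it was 35.5, 36.6 and 113.5, with the wild type at 2.07 FPKM and CAST-/129- at 235.0. CAST-/129- was 2.45 times CAST+/129- (2.30 to 2.62) and 2.18 times CAST-/129+ (2.02 to 2.37).

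As a share of the summed FPKM of the 7 actin genes measured, Acta2 made up 0.62% in the wild type and 7.18% (CAST+/129-), 8.51% (CAST-/129+) and 15.5% (CAST-/129-) in the deletion clones. By reads its share was 0.206%, 3.93%, 5.23% and 12.7%. Actb made up 65.3%, 60.4%, 58.3% and 53.8%. The actin sum itself was 575.6 FPKM in the wild type and 1026, 973.5 and 1170 in the clones. Cytoplasmic actins therefore remained the bulk of actin RNA in every library. Of the 4 actins outside the 10 genes, Acta1, the skeletal muscle alpha actin, was called higher in CAST-/129- (3.84 to 45.3 FPKM). In the monoallelic clones none was called by distinct alignments, but by reads Acta1 was past the line in both, with log2 ratios of 1.68 and 1.62.

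Tagln encodes transgelin, or SM22, a calponin-like protein that marks early smooth muscle. It was at 4.09 FPKM (3.48 to 4.77) in the wild type, and at 70.0 (CAST+/129-), 95.3 (CAST-/129+) and 164.0 (CAST-/129-) in the deletion clones. The order of the clones was the same as for Acta2. The ratio to the wild type was 17.1 (14.6 to 20.3), 23.3 (19.7 to 27.8) and 40.2 (34.1 to 47.5), and by reads 27.02, 40.2 and 81.5. In the wild type 24.8% of the alignments over Tagln lay on the other strand, against 1.07% or less in the clones.

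Tagln2, the transgelin of non-muscle cells, was at 72.4 FPKM in the wild type, and at 85.9 (CAST+/129-), 104.6 (CAST-/129+) and 104.6 (CAST-/129-) in the deletion clones. Its ratios of 1.19 (1.13 to 1.25), 1.44 (1.36 to 1.54) and 1.45 (1.36 to 1.54) were the smallest of the 10 genes by distinct alignments. Divided by Actb, Tagln2 lay below the wild type, with log2 ratios of -0.45, -0.06 and -0.20. Tagln thus went from a minor to a large part of the transgelin RNA. It made up 5.28% of the summed FPKM of Tagln, Tagln2 and Tagln3 in the wild type and 44.8% (CAST+/129-), 47.5% (CAST-/129+) and 60.8% (CAST-/129-) in the deletion clones.

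**Figure D2:**
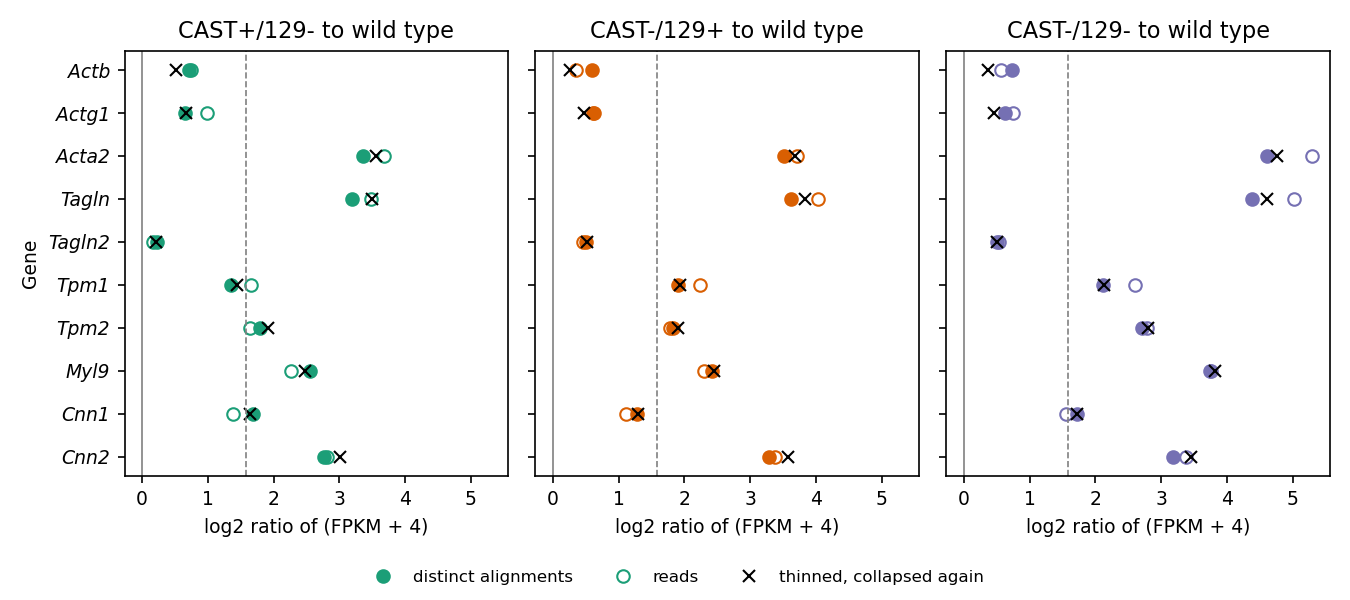
Log2 ratio of FPKM plus 4 to the wild type for the 10 genes in each deletion clone, from distinct alignments (filled), all reads (open) and reads thinned to the shallowest library and collapsed again (crosses); the dashed line is 3-fold. Actb, Actg1 and Tagln2 lie left of the line in all 3 panels, and Acta2, Tagln, Tpm2, Myl9 and Cnn2 lie right of it by all 3 counts.

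Myl9, the regulatory light chain typical of smooth muscle myosin, was at 1.52 FPKM (1.11 to 2.05) in the wild type, and at 28.3 (CAST+/129-), 25.6 (CAST-/129+) and 70.5 (CAST-/129-) in the deletion clones. The monoallelic clones did not differ beyond counting error, at a ratio of 0.903 (0.753 to 1.08) for CAST-/129+ over CAST+/129-. The biallelic clone was 2.49 (2.18 to 2.85) and 2.76 (2.32 to 3.29) times the monoallelic ones. Its ratio to the wild type was 46.3 (34.0 to 64.6), which rests on 44 alignments in the wild type, and by reads it was 74.5. Among the regulatory light chains Myl9, Myl12a and Myl12b, Myl9 took 1.31% of the summed FPKM in the wild type and 28.3% in CAST-/129- (0.659% and 24.2% by reads).

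Calponins bind actin and restrain myosin. Cnn1, the smooth muscle calponin, was the least abundant of the 10 genes, at 0.306 FPKM (0.181 to 0.484) in the wild type, and at 9.93 (CAST+/129-), 6.41 (CAST-/129+) and 10.1 (CAST-/129-) in the deletion clones. The wild type level rests on 18 alignments. Its ratios of 32.5 (20.2 to 55.6), 21.0 (12.6 to 36.9) and 33.1 (20.2 to 57.6) were large, but on the FPKM plus 4 scale its log2 ratios were 1.69, 1.27 and 1.72, near the 3-fold line. By reads they were 1.38, 1.11 and 1.56, all short of it. On exonic bases outside the coding sequence the ratios were 20.4, 16.4 and 21.3, and the log2 ratios on the FPKM plus 4 scale, 1.003, 0.84 and 1.03, were also short of it. In CAST+/129- and CAST-/129- Cnn1 was short of the line too with library sizes from all alignments (1.45 and 1.48). The same held after division by Actb (1.22 and 1.22) and with a pseudo-value of 10 (0.952 and 0.967).

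Cnn2, a calponin found in many cell types, was at 3.78 FPKM in the wild type, and at 48.8 (CAST+/129-), 71.6 (CAST-/129+) and 66.6 (CAST-/129-) in the deletion clones. Here the biallelic clone was not the highest: CAST-/129- was 0.930 times CAST-/129+, with an interval of 0.851 to 1.02. The ratios to the wild type were 12.9 (11.3 to 14.9), 18.9 (16.4 to 21.9) and 17.6 (15.2 to 20.4), and with thinned libraries 19.9, 29.9 and 27.6. Cnn3, which is no member of the 10, supplied 98.0% of calponin FPKM in the wild type and 66.1% in CAST-/129-, and Cnn2 went from 1.83% to 29.5% (0.82% to 26.8% by reads).

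Tpm2, a tropomyosin gene best known from muscle, was at 1.34 FPKM in the wild type, and at 14.6 (CAST+/129-), 14.9 (CAST-/129+) and 30.8 (CAST-/129-) in the deletion clones. Its ratio to the wild type was 10.9 (8.75 to 13.7), 11.1 (8.78 to 14.2) and 23.0 (18.5 to 28.8). By reads the last was 34.6, and on exonic bases outside the coding sequence the ratios were 12.6, 6.15 and 13.6. On those bases Tpm2 was short of the 3-fold line in every clone, with log2 ratios of 1.26, 0.70 and 1.33. It was also short of it in the monoallelic clones after division by Actb (1.27 and 1.38) and with a pseudo-value of 10 (1.12 and 1.14), and in CAST-/129+ with library sizes from all alignments (1.54). Tpm1, which encodes many isoforms of muscle and non-muscle cells, was at 15.7 FPKM in the wild type, and at 46.3 (CAST+/129-), 69.4 (CAST-/129+) and 81.7 (CAST-/129-) in the deletion clones. It was the one gene of the 7 called higher that was already above 5 FPKM in the wild type. Its ratios were 2.94 (2.80 to 3.10), 4.42 (4.18 to 4.67) and 5.20 (4.93 to 5.48). By reads its log2 ratio in CAST+/129- was 1.65 and past the line, against 1.35 by distinct alignments. After division by Actb its log2 ratios of 1.34 in CAST-/129+ and 1.42 in CAST-/129- were short of the line.

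The difference in Tpm1 lay at its distal first exon. Long tropomyosins start at the distal first exon and short ones at an internal first exon. The distal first exon (chr9:66896826-66897213) was at 7.57 FPKM in the wild type, and at 103.4 (CAST+/129-), 172.3 (CAST-/129+) and 205.5 (CAST-/129-) in the deletion clones, a ratio of 27.1 (21.2 to 35.2) in CAST-/129-. By reads it was at 4.97 FPKM in the wild type and 230.6 in CAST-/129-, a wider difference. The internal first exon (chr9:66891385-66891769) was at 22.5 FPKM in the wild type, and at 22.7 (CAST+/129-), 13.3 (CAST-/129+) and 16.04 (CAST-/129-) in the deletion clones. It was not higher beyond counting error in any clone: its ratio was 1.01 (0.796 to 1.28), 0.591 (0.392 to 0.864) and 0.714 (0.487 to 1.02). Per base, the internal exon held 74.8% (69.4 to 79.7) of the first-exon signal in the wild type. That share was 18.01% (15.03 to 21.3) for CAST+/129-, 7.16% (4.92 to 10.01) for CAST-/129+ and 7.24% (5.12 to 9.88) for CAST-/129-. The whole-gene ratio of Tpm1 therefore averages starts that differed from each other in their ratio.

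**Figure D3:**
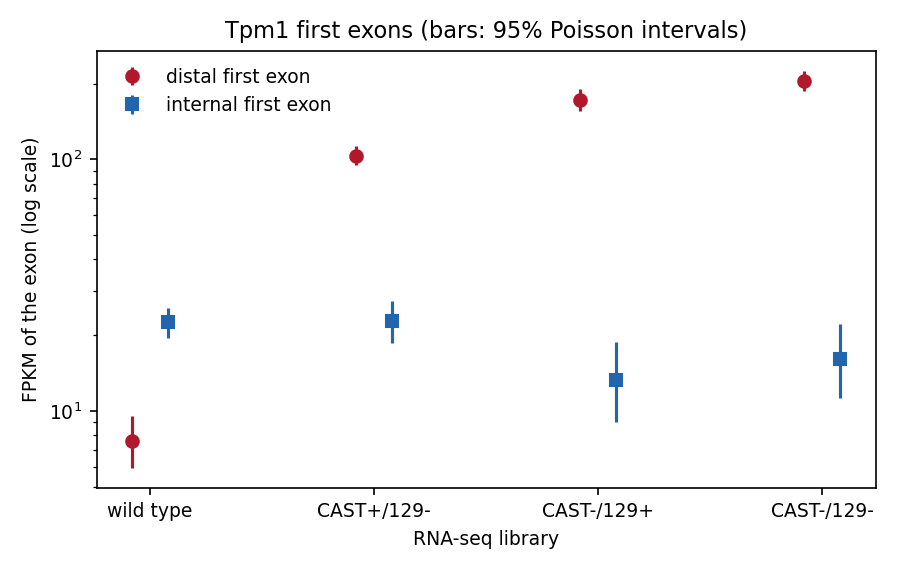
FPKM of the distal and the internal first exon of Tpm1 (log axis) in the 4 RNA-seq libraries, with exact 95% Poisson intervals as bars. The internal exon is the higher of the pair in the wild type (22.5 against 7.57) and the lower in every deletion clone.

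The shares of other alternative exons of Tpm1, examined after the annotation had been seen, differed less. The exon 2 form of Tpm1 used in smooth muscle held 10.3% (2.19 to 27.4) of exon 2 signal in the wild type and 6.10% (3.45 to 9.86) in CAST-/129-, from 3 and 15 alignments. The striated muscle terminal exon held 35.6% (31.6 to 39.7) in the wild type, 28.8% in CAST+/129-, 30.99% in CAST-/129+ and 19.2% (15.8 to 22.9) in CAST-/129-. The upstream of the 2 alternative sixth exons of Tpm1 held 58.0% (50.6 to 65.1) in the wild type and 47.2% (40.01 to 54.4) in CAST-/129-. For Tpm2, the upstream of its alternative sixth exons held 0 alignments in every library and the downstream one 3 in the wild type and 19, 9 and 17 in the clones. In every library most of the Tpm1 signal lay on the exon 2 form other than that of smooth muscle and on the terminal exon other than that of striated muscle.

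Across the 10 genes, the biallelic clone exceeded both monoallelic clones beyond counting error for Acta2, Tagln, Tpm1, Tpm2 and Myl9. For Tpm2 this did not hold on exonic bases outside the coding sequence, where CAST-/129- was 1.08 times CAST+/129-. For Actg1, Tagln2, Cnn1, Cnn2 and Actb it did not exceed both. In the wild type the order of level per length was Actb, Actg1, Tagln2 and Tpm1, then Tagln, Cnn2 and Acta2, whose intervals overlap, then Myl9 and Tpm2, whose intervals overlap, and last Cnn1. In CAST-/129- the order was Actb, Actg1, Acta2, Tagln, Tagln2 and Tpm1, then Myl9 and Cnn2, whose intervals overlap, then Tpm2 and Cnn1. By reads Tpm1 (109.6 FPKM) stood above Tagln2 (102.3) there.

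The chromatin marks at the starts of these genes in unedited cells varied widely. The 5′ ends of ChIP alignments within 1 kb of the start were divided by the mean density of the genome in the same library. H3K4me3, a mark of promoters in use or poised, was 37.7 times the mean (32.7 to 43.3) at Actb, 32.0 at Actg1, 15.4 at Tagln2, 11.5 at Cnn2, 7.62 at the distal start of Tpm1 and 6.13 at Tpm2. It was 2.60 at Cnn1, 2.04 at Myl9, 1.67 at Tagln and 0.557 (0.115 to 1.63) at Acta2. Hence 6 of 10 starts were over 5 times the mean, where 52.4% of 22367 starts were, and the share of the 10 is near that background. Tpm2, with an interval of 4.22 to 8.61, fell short of the line within 2 kb of the start, at 3.35.

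H3K27ac, a mark of active promoters and enhancers, was over 5 times the mean in F123 at 3 of 10 starts, where 35.9% of all starts were, and in J1 at 3 of 10, where 31.1% were. The 3 were the same in both lines: Actb (49.4 times in F123 and 19.8 in J1), Actg1 (63.6 and 19.3) and Tagln2 (7.53 and 13.0). Tagln2 in F123 rests on 9 alignments (3.44 to 14.3) and fell short of the line within 2 kb, at 4.60. Cnn2, Tpm2 and the distal start of Tpm1 had H3K4me3 over the line but not H3K27ac. For Cnn2, H3K27ac was at 0.837 in F123 (0.0212 to 4.66), from 1 alignment. In J1 it was at 4.09 (2.62 to 6.09), above 64.0% of starts. Tagln and Myl9 had 0 alignments in F123, for which the interval reaches 3.09 times the mean. Acta2, Cnn1 and Tpm2 each had 3 alignments in F123, at 2.51 times the mean (0.518 to 7.34), an interval that spans the line. In J1 they were at 0.852, 0.682 and 1.53. The internal start of Tpm1 was at 21.0 for H3K4me3 and 15.9 and 9.21 for H3K27ac, and the distal start at 7.62, 0.837 and 1.19. By reads the J1 value of the internal start was 4.99, just short of the line. The start that supplied most first-exon RNA in the wild type was thus the one with the more marked chromatin in unedited cells. No ChIP library of a deletion clone was analysed here.

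**Figure D4:**
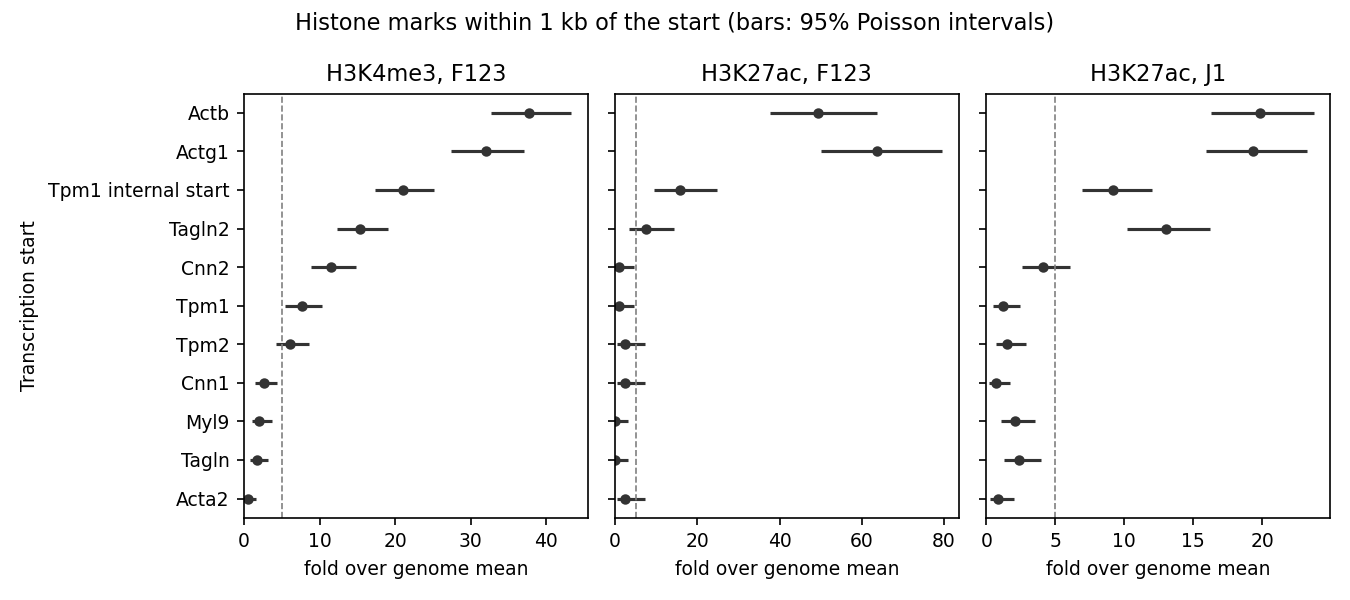
H3K4me3 and H3K27ac within 1 kb of the start of each gene in unedited mESC lines, as fold over the genome mean of the same library, with exact 95% Poisson intervals; the dashed line is 5-fold. The points of Actb, Actg1, Tagln2 and the internal start of Tpm1 exceed the line in all 3 libraries. Those of Acta2, Tagln, Myl9 and Cnn1 lie below it in each. Among these, the F123 H3K27ac intervals of Tagln2, Acta2 and Cnn1 span the line.

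Most of the other listed genes of the actin system were not called, with Gsn among the exceptions. Of 12 genes of filament turnover, 1 was called higher in each clone: Gsn, which severs filaments, at 3.70 FPKM in the wild type, and at 19.9 (CAST+/129-), 26.9 (CAST-/129+) and 64.0 (CAST-/129-) in the deletion clones. By reads Gsn was short of the line in CAST+/129-, with a log2 ratio of 1.53. The median log2 ratio of that list in CAST-/129- was 0.57. Cfl1, its most abundant gene, was at 349.8, 529.3, 596.6 and 517.6 FPKM in the 4 libraries. Of 10 cross-linking and adhesion genes, 0 were called in the monoallelic clones and 1 in CAST-/129-, namely Zyx, a protein of focal adhesions (9.31 to 43.8 FPKM). Of the 7 non-muscle myosin genes and the 4 other tropomyosin, calponin and transgelin genes, 0 were called in any clone.

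Among 8 further smooth muscle genes, Csrp1, a LIM protein, was called higher in each clone, at 17.3 FPKM in the wild type and 69.6, 65.5 and 94.0 in the clones. Cald1, which encodes caldesmon, was called only in CAST-/129- (12.6 to 63.1 FPKM). Myh11, the smooth muscle myosin heavy chain, was at 0.261 FPKM in the wild type and 1.68 in CAST-/129-, a ratio of 6.44 (4.32 to 9.70) at a low level. Of the others not called, in CAST-/129- Lmod1, or leiomodin, was at 2.39 FPKM (0.0816 in the wild type), Des, or desmin, at 8.86 (2.84) and Synpo2 at 0.474 (0.0984). Myocd, the smooth muscle coactivator of SRF, was at 0.447 FPKM or less in every library. Smtn, or smoothelin, was at 16.1 FPKM in the wild type and 15.4 in CAST-/129-. The median log2 ratio of the list in CAST-/129- was 0.53.

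SRF and the genes that act on it were not called in any clone (0 of 6). Srf itself was at 11.8 FPKM in the wild type, and at 34.9 (CAST+/129-), 18.6 (CAST-/129+) and 20.6 (CAST-/129-) in the deletion clones. Of 5 further SRF target genes, 3 were called higher in CAST+/129- (2 by reads), 1 in CAST-/129+ and 2 in CAST-/129-. Ctgf, a secreted matrix protein, was at 8.31 FPKM in the wild type and 81.4, 23.6 and 37.9 in the clones, and was called in CAST+/129- and CAST-/129-. Cyr61, of the same family, was at 18.8 FPKM in the wild type and 81.9, 41.9 and 48.2 in the clones, and was called in CAST+/129-. Fhl2, a LIM protein of actin fibres, was at 1.44 FPKM in the wild type and 14.99, 15.4 and 16.4 in the clones. It was called in each by distinct alignments, but not by reads in CAST+/129-. Egr1, an immediate early gene, was lower, at 14.0 FPKM in the wild type and 2.59, 1.23 and 2.99 in the clones, past 3-fold in CAST-/129+ by distinct alignments, and in no clone by reads or with thinned libraries.

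Some markers of other cells were higher too, namely keratins of simple epithelium in each clone and fibroblast markers chiefly in CAST-/129-. Their part in the result was not tested. The transfected cells had recovered on embryonic fibroblast feeders, and whether RNA of leftover feeders contributed to the fibroblast and contractile values was not tested. In bulk RNA, more cells of a type and more RNA per cell cannot be told apart. The summed FPKM of 15 fibroblast markers was 48.3 in the wild type, and 101.5 (CAST+/129-), 95.9 (CAST-/129+) and 498.7 (CAST-/129-) in the deletion clones. Of the 15, 3, 2 and 8 were called higher (2, 2 and 7 by reads). The median log2 ratio of the list was 0.39, 0.35 and 1.655. The constant added to each FPKM shrinks the ratios of genes at low levels. The low medians of the monoallelic clones therefore do not show that the typical marker differed little. Of the 15, 8 were at 1 FPKM or more in the wild type, and 13, 13 and 14 in the clones. In the wild type 2 were at 0, and in each clone 0 were. Col1a1, the main collagen of fibroblasts, was at 3.48, 39.0, 38.9 and 174.4 FPKM, and Lum, another matrix gene, was at 0 in the wild type and 8.60 in CAST-/129-. Pdgfra, a growth factor receptor on the same list, was called lower in all 3, but in CAST-/129- not by reads or with thinned libraries (log2 ratios -1.38 and -1.51). Fap was at 0.182 FPKM or less throughout.

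All 4 keratins of simple epithelium were called higher in each clone, except that by reads and with thinned libraries Krt7 was short of the line in CAST+/129-. Their summed FPKM was 18.8 in the wild type and 329.4, 577.2 and 573.9 in the clones. Krt18, for example, was at 1.81 FPKM in the wild type and 231.4 in CAST-/129-. Of 10 striated muscle markers, 0 were called by distinct alignments and 1 by reads, Myl7 in CAST-/129+ (log2 ratio 1.61), and their sum lay between 3.59 and 24.6 FPKM. As for the labelled cell type, all 8 mESC markers were above 1 FPKM in every library, and their sum was 1426 FPKM in the wild type and 1351, 1308 and 993.4 in the clones. Of the 8, 1, 1 and 4 were called lower, and their median log2 ratio in CAST-/129- was -1.07. The 4 were Klf4, Esrrb, Zfp42 and Nanog.

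The genes most like Tagln and Actb were found by the distance between their 3 log2 ratios among 9528 genes with a mean of at least 5 FPKM. Acta2 was nearest to Tagln, at a distance of 0.30, followed by Krt8, a keratin, at 0.56, and by Sct, Thbs1 and Crip1 at 0.98 to 1.10. The 5 genes nearest to Actb were Tatdn2, Eif2b1, Jup, Atxn10 and Pmm2, at 0.07 to 0.10. Each ratio comes from 1 library, and all 3 share the wild type.

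Actb served as the reference gene of the study's RT-qPCR, so its own level enters any value divided by it. In the deletion clones Actb was at 164.8%, 151.1% and 167.4% of the wild type. The median of 12 other commonly used reference genes was 115.8%, 115.8% and 113.0%, and Actb was above 11, 10 and 11 of the 12. By reads the median was 108.6%, 97.4% and 101.3%, and Actb was at 168.7%, 127.3% and 147.7%. With thinned libraries the median was 110.2%, 103.3% and 101.7%, and Actb was at 143.0%, 119.5% and 129.1%. It was then above 11, 9 and 10 of the 12. Other reference genes also differed. The highest of the 12 in CAST-/129- was B2m, at 345.5%, but in both monoallelic clones another gene was the highest.

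Division of the RNA-seq levels by Actb lowers every gene of a clone by the same factor. Sox2 was at 46.9%, 41.8% and 4.24% of the wild type on the FPKM scale and at 28.5%, 27.7% and 2.53% after division. With thinned libraries the divided values of Sox2 were 32.2%, 34.6% and 3.29%. Pou5f1 was at 69.9%, 109.8% and 86.7% and at 42.4%, 72.7% and 51.8% after division. Before any division it was at 50.7%, 79.5% and 61.9% by reads, and at 61.6%, 90.05% and 70.35% with thinned libraries. Nanog in CAST-/129- was at 29.9% and at 17.9% after division. These are RNA-seq values and not RT-qPCR measurements.

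**Figure D5:**
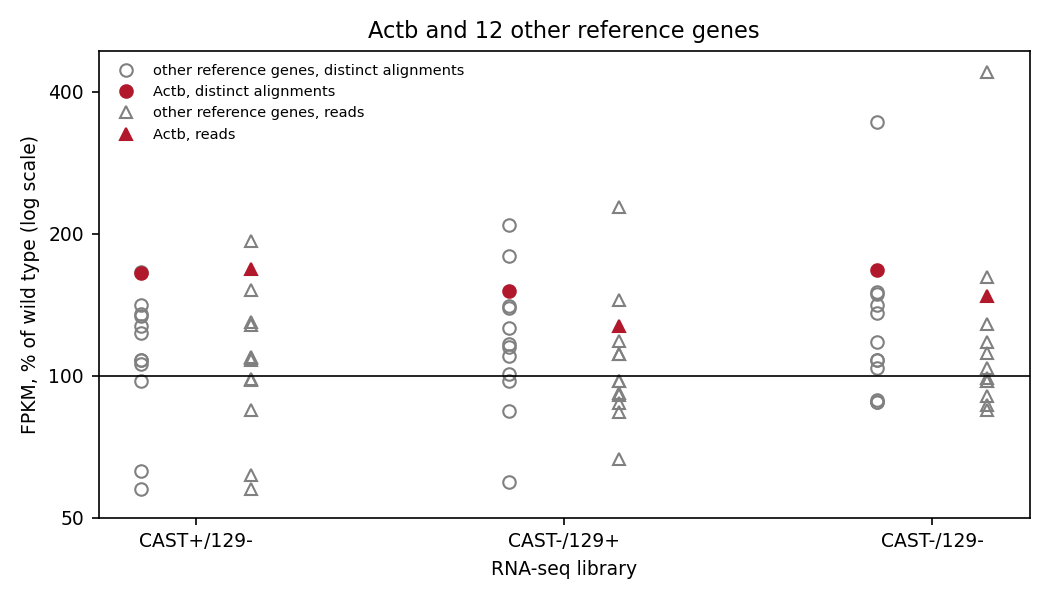
FPKM in each deletion clone as a percentage of the wild type (log axis) for Actb (red) and 12 other reference genes (grey), from distinct alignments (circles) and reads (triangles). Actb lies above 100% in each clone by both counts and above at least 10 of the 12 other genes.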

How the data were processed

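RNA was polyA-selected and sequenced strand-specifically in 4 libraries, and chromatin in 3. The authors mapped RNA reads to mm9 with Novoalign and USeq and ChIP reads with Bowtie, and versions are not given in the sources used here. The deposited files list alignments, and their values are counts of the reads behind each distinct alignment, not normalized. From these, distinct alignments and reads were counted on exonic bases unique to 1 gene of the transcript strand (GENCODE M1, genes with at least 200 such bases), by alignment midpoint. Spliced reads are split into segments, each of which counts. FPKM used the total on genes, a pseudo-value of 4 was added, and 3-fold was the threshold. Where identical alignments are collapsed, highly expressed genes in deeper libraries are understated.

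Depth ranged from 5831199 to 24848422 distinct alignments on genes, and the 3 ChIP libraries held 7098458 (H3K4me3, F123), 1575763 (H3K27ac, F123) and 7735601 (H3K27ac, J1). With 1 library per group no test between groups was made: intervals are exact Poisson (levels), exact binomial (ratios and shares), at 95%, and cover counting error only. They leave out variation between clones and between libraries. They also treat every count as independent, which segments of 1 spliced read are not, so they can be too narrow even for counting error. The counting rule was tested on simulated data. Members and gene lists were chosen with earlier results of these data known. Every member was named, Tpm1 and Tpm2 also by alternative exons (beyond the first exons, added later), Actb and Tagln with their 5 nearest genes, and of other lists at most 4 genes: the largest and smallest ratio, the highest level and any past 3-fold. Col1a1, Lum, Fap, Myh11, Myocd, Smtn, Lmod1, Des, Synpo2, Srf, Krt18, Krt7, Myl7 and the reference and pluripotency genes named fall partly outside that rule and were chosen after their values were seen. Python 3.11.15, numpy 2.4.6, pandas 2.3.3 and scipy 1.17.1 were used. Alternatives were other units, library sizes, pseudo-values, thresholds, strands and gene bases. Some promoter sequences and the values of most single reference genes are not reported here.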

Additional observations from a re-analysis of the deposited data

How the results depend on the processing

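No paired analysis was possible because each genotype had 1 library. The count of the 10 genes called stayed within 1.5 times its value in every alternative tried, and so did the count of marked starts. Within that range calls were lost. After division by Actb, for example, 4 of the 10 genes were called higher in each monoallelic clone and 5 in CAST-/129-. Marked starts fell to 4 for H3K4me3 at 10 times the mean, and to 2 for H3K27ac in F123 within 2 kb. Counts over all genes moved. In CAST+/129-, CAST-/129+ and CAST-/129-, in that order, division by Actb left 52, 75 and 115 genes called higher and 224, 241 and 393 lower. A pseudo-value of 1 gave 287, 427 and 701 higher and 348, 407 and 565 lower, and a pseudo-value of 10 gave 50, 75 and 120 higher and 24, 32 and 50 lower. A 2-fold threshold gave 285, 384 and 630 higher and 401, 482 and 605 lower, and a 5-fold threshold 49, 56 and 103 higher and 14, 16 and 29 lower. Library sizes from all alignments gave 62 lower in CAST+/129- and 106 in CAST-/129-. By construction a lower pseudo-value or threshold calls more genes. Division by Actb moved the median log2 ratio of expressed genes by -0.44, -0.36 and -0.45, and put Actg1 in CAST+/129- and CAST-/129- and Tagln2 in all 3 clones below the wild type. Counting by reads moved that median by 0.11 in CAST-/129-, and thinning by 0.11 in CAST-/129+ and 0.10 in CAST-/129-.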
